A study of Homo sapiens with 2 samples.

Results

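Integrins and laminins were examined as a receptor and ligand family in U87MG, an established human glioblastoma cell line grown as glioma spheres. Members were the protein-coding genes of the deposited FPKM table whose symbols name an integrin alpha or beta subunit or a laminin alpha, beta or gamma chain, without the integrin-binding proteins and ITGBL1. They came to 38 of 58735 genes, with 18 integrin alpha subunits, 8 integrin beta subunits and 12 laminin chains. Members were set by symbol and not by their values, though earlier results of these data were known when they were chosen. The study compared cells infected with a lentivirus for a TRIP13 shRNA and cells infected with the pGIPZ control lentivirus. TRIP13 is an ATPase that acts on spindle checkpoint proteins. Cells of both groups were selected with puromycin as stable clones, without a number of clones being given, and spent a week under stem cell culture conditions before total RNA was taken.

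Each group held 1 library, so no difference here has a replicate check, and every value describes these libraries and not the conditions. The target of the shRNA went against the label, since TRIP13 stood at 23.1 FPKM in the library labelled TRIP13 shRNA, against 11.9 FPKM in the control library, a ratio of 1.95 (95% counting interval 1.79 to 2.12). Every direction below is therefore a direction between the libraries as labelled. Whether the columns of the deposited table were exchanged was not tested, and an exchange would turn every direction. Recovered reads came to 19903836 in the library labelled TRIP13 shRNA, against 18871063 in the control library, and members took 0.470% of the first total and 0.698% of the second. FPKM relates the fragments of a gene to its exon length and to a total that was the same for both libraries, so ratios of FPKM carry the depth ratio of 1.05. Among glioma and stem cell markers, VIM (427 against 442 FPKM) and CD44 (112 against 115 FPKM) were abundant in both libraries. SOX2, PROM1 and GFAP were below 1 FPKM in both, so these defining neural stem cell and astrocyte markers were near absent. OLIG2 (0.339 against 2.72 FPKM) and NES (2.21 against 5.23 FPKM) were below 10 FPKM in both. Of 6 such markers with 20 or more reads, 4 had a ratio of 0.5 or less with a counting interval below 1. This rule, added after seeing the data, held for 10.5% of the 12895 protein-coding genes with 20 or more reads. The 4 were OLIG2 (8.05-fold lower, 5.15 to 13.2), NES (2.37-fold lower, 2.03 to 2.76), GFAP (28 against 92 reads) and FABP7 (16 against 67 reads). VIM and CD44 were not among them.

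Laminins are basement membrane proteins secreted as trimers of an alpha, a beta and a gamma chain. The alpha chain carries the main site that cells bind. Integrins are cell surface receptors made of an alpha and a beta subunit that link such matrix to the actin cytoskeleton, and the alpha subunit largely sets which ligand is bound. Glioma cells are known to use both families for adhesion and invasion.

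In the library labelled TRIP13 shRNA, expression of the laminin alpha chains LAMA2, LAMA4 and LAMA5 and of the integrin alpha subunits ITGA2, ITGA7, ITGA10 and ITGAX was at least 2-fold lower, while ITGB1, the main integrin beta transcript, and LAMC1, a laminin gamma chain, stood close to their control levels. Differences were measured as the log2 ratio of FPKM + 1, the library labelled TRIP13 shRNA over the control library, which understates differences of low genes. Of the 38 members, 23 had a mean FPKM of 1 or more and 15 fell under this filter. Among the 23, 7 were at least 2-fold lower (log2 ratio of -1 or less), against 4.19% of the 10671 protein-coding genes past the same filter. None was at least 2-fold higher (log2 ratio of 1 or more), against 2.17% of those genes. The median log2 ratio of the 23 was -0.52, beside 0.12 for all 10671 genes. By family it was -0.55 for 10 integrin alpha subunits, 0.04 for 3 integrin beta subunits and -0.64 for 10 laminin chains. Past the limits were 232 of the 10671 genes upward and 447 downward. These counts were 139 and 568 with the median ratio of all genes set to 1, and 277 and 956 among the genes past the filter under TPM, each of which shifted the median of all genes by -0.12. Of the 23, ITGA10, ITGA4, LAMA2 and LAMA5 passed through their control level alone, with under 1 FPKM in the library labelled TRIP13 shRNA, and 3 of these are among the 7.

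**Figure D1:**
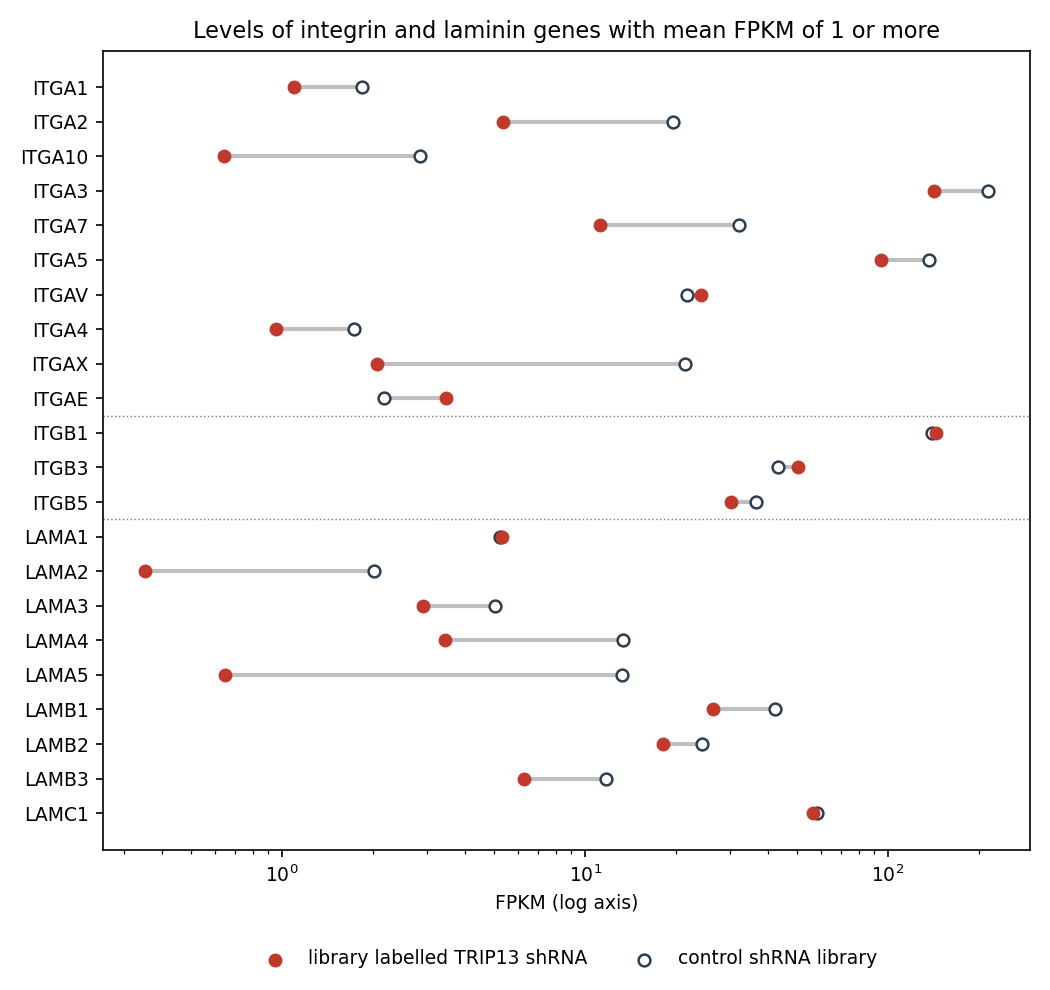
FPKM (log axis) of 22 of the 23 integrin and laminin genes past the filter, filled points for the library labelled TRIP13 shRNA and open points for the control library, 1 library each. LAMA5 at 0.646 against 13.2 FPKM and ITGAX at 2.05 against 21.3 FPKM are the widest gaps, while ITGB1, LAMA1 and LAMC1 nearly coincide.

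A count without pseudocount or FPKM filter was added after seeing the data. It took genes with 20 or more reads in both libraries together, which 31 of the 38 members had. Of these 31, 12 had a ratio of 0.5 or less with a counting interval below 1, against 10.5% of 12895 protein-coding genes. No member had a ratio of 2 or more with an interval above 1, against 4.72% of those genes. Intervals lay wholly below the depth ratio for 25 of the 31 members, against 35% of the 12895 genes. They lay wholly above it for 3 members, ITGAE, ITGB3 and ITGAV, against 37.7% of those genes. The intervals are exact (Clopper-Pearson) and cover counting error only.

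**Figure D2:**
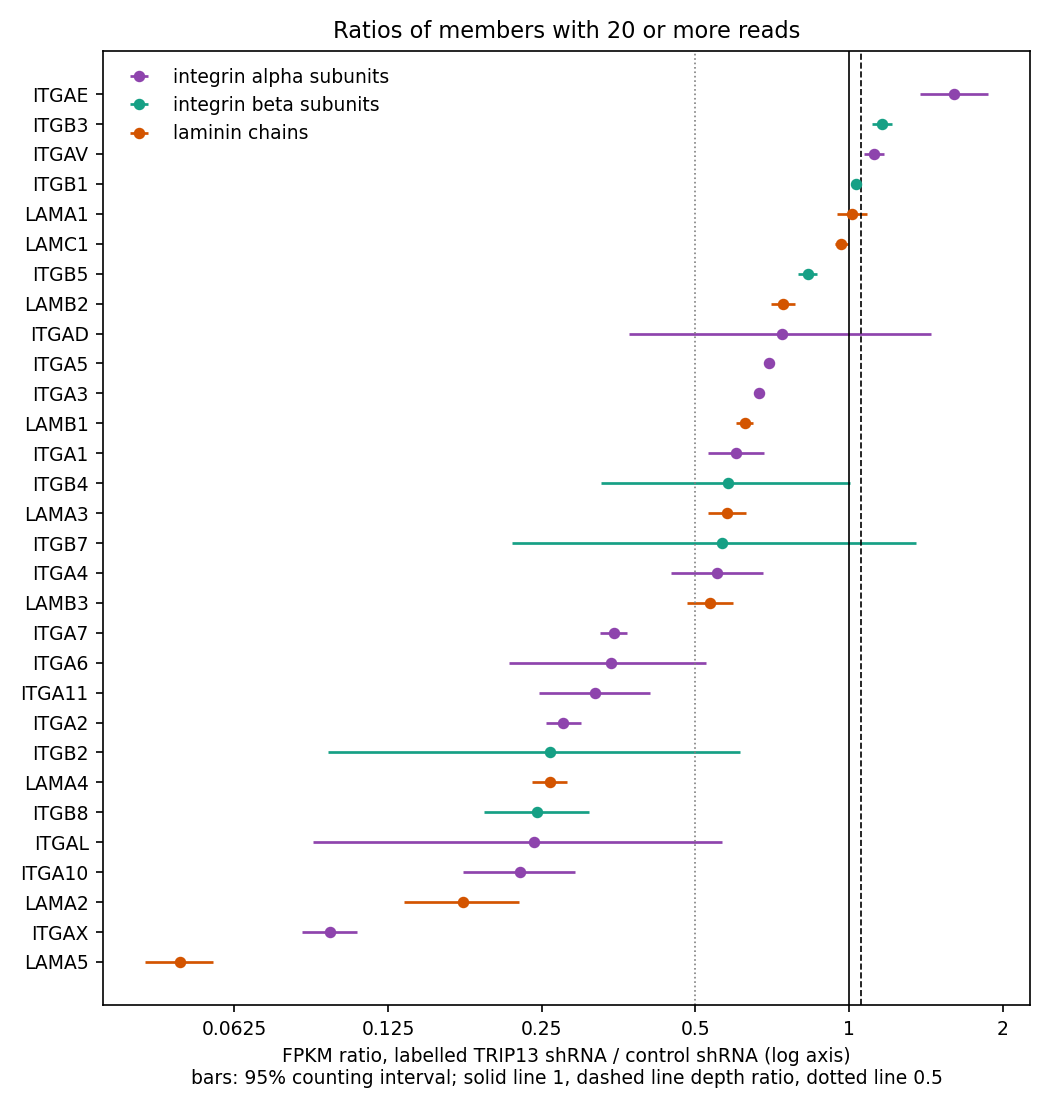
FPKM ratio (log axis), library labelled TRIP13 shRNA over control library, of 30 of the 31 members with 20 or more reads, with 95% counting intervals as bars. Points run from 0.0489 for LAMA5 to 1.60 for ITGAE, and ITGB1 and LAMC1 sit near the lines at 1 and at the depth ratio.

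The laminin chains at least 2-fold lower were the alpha chains LAMA5, LAMA4 and LAMA2. LAMA5 (ENSG00000130702, hg38 chromosome 20, 62307955 to 62367312, minus strand), the alpha chain of many adult basement membranes, had 0.646 FPKM from 179 reads in the library labelled TRIP13 shRNA, against 13.2 FPKM from 3660 reads in the control library. It was 20.4-fold lower (17.6 to 23.9), with a log2 ratio of -3.11, the lowest of the 23 members. LAMA4 (chromosome 6, 112108760 to 112254939, minus strand), a chain of vascular and mesenchymal basement membranes, had 772 and 2981 reads and was 3.86-fold lower (3.57 to 4.18), at 3.44 FPKM against 13.3 FPKM. LAMA2, the chain of muscle and peripheral nerve, had 0.354 FPKM in the library labelled TRIP13 shRNA, against 2.02 FPKM in the control library, from 71 and 405 reads, and was 5.70-fold lower (4.42 to 7.45). LAMA3, a chain of epithelial laminin, had 2.92 FPKM against 5.06 FPKM, a ratio of 0.577 (0.530 to 0.629).

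LAMA1, the alpha chain of early embryonic basement membranes, was the exception. It had 5.31 FPKM in the library labelled TRIP13 shRNA, against 5.24 FPKM in the control library, from 1634 and 1613 reads, a ratio of 1.01 (0.945 to 1.09). Its log2 ratio of 0.02 changed sign under another scaling and no direction is read. LAMA1 made up 41.9% of the summed laminin alpha FPKM in the library labelled TRIP13 shRNA, against 13.5% in the control library, while LAMA5 made up 5.10% and 34.0%. LAMA4 took 27.2% and 34.2% of that sum. Other genes share 11.1% of the exon length of LAMA1. The order of the alpha chains differed, since LAMA1 led in the library labelled TRIP13 shRNA, while LAMA4 and LAMA5 led in the control library.

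Sequence upstream of the start is shown for LAMA5 and LAMA4, which were far lower, and for LAMC1, a laminin gene near its control level. RefSeq promoters (GRCh38.p14, a patch release of the build hg38 of the deposited values) were found for 26 of the 38 members and for 5 of the 7 members at least 2-fold lower. The 250 bases before the annotated start are printed 5′ to 3′ on the strand of the gene, with capitals for the GC box GGGCGG on either strand. The windows lie at chr20:62367313-62367562 (minus strand) for LAMA5, chr6:112254568-112254817 (minus strand) for LAMA4 and chr1:183023170-183023419 (plus strand) for LAMC1.
LAMA5: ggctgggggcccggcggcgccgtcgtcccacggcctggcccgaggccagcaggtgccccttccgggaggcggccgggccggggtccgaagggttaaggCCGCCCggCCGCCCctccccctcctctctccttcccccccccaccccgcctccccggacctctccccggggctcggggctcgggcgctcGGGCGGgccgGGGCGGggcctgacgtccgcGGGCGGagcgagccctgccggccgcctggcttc
LAMA4: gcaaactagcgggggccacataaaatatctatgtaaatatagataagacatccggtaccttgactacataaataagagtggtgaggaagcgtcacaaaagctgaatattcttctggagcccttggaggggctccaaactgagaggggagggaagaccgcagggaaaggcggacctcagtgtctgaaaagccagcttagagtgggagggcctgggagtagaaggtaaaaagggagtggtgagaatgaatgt
LAMC1: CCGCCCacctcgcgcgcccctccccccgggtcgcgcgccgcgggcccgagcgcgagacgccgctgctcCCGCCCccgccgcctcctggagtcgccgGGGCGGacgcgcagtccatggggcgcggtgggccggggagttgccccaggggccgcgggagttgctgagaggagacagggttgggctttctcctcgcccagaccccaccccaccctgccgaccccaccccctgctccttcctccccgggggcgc

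The LAMA5 window held 5 GC boxes at 82.8% G and C, the LAMC1 window 3 at 79.6%, and the LAMA4 window 0 at 48.4%. The LAMA4 window lies within the gene as annotated for the deposited values, whose end is further upstream. Among 21021 promoters of protein-coding genes, 54.4% held a GC box in the same window, beside 2 of the 5 promoters of members at least 2-fold lower and 11 of 18 promoters of the other members past the filter, some of which have several entries. The AP-1 motif TGANTCA (5.38% of promoters), the TATA box TATAAA (8.79%) and the TEAD motif GGAATG (10.4%), searched on both strands, were in none of these 3 windows. Whether these letters relate to the ratios was not tested. Elsewhere among the members, the TEAD motif was in 2 of the 5 promoters of lower members, ITGA10 and LAMA2, and in 2 of the 18 others. The AP-1 motif was in 0 and 2 of these promoters, and the TATA box in 0 and 1. The matches are a description of letters and say nothing of a factor.

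The laminin beta chains past the filter had ratios between those of LAMA2, LAMA4 and LAMA5 and that of LAMA1. LAMB1, a widely used beta chain, had 26.4 FPKM in the library labelled TRIP13 shRNA, against 42.3 FPKM in the control library, from 4170 and 6674 reads, a ratio of 0.625 (0.601 to 0.650). LAMB2, the chain of synaptic and glomerular laminins, had 18.0 FPKM against 24.3 FPKM, a ratio of 0.742 (0.703 to 0.782). LAMB3, which joins LAMA3 in epithelial laminin, had 6.26 FPKM against 11.7 FPKM, a ratio of 0.534 (0.481 to 0.592). None of the 3 reached the 2-fold limit. The 5 epithelial markers, beside which LAMA3 and LAMB3 can be read, summed to 0.669 FPKM in the library labelled TRIP13 shRNA, against 0.571 FPKM in the control library, with 1 and 2 of them at 0.

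LAMC1, the common gamma chain, stood near its control level. LAMC1 (chromosome 1, 183023460 to 183145592, plus strand) had 56.5 FPKM in the library labelled TRIP13 shRNA, against 58.5 FPKM in the control library, from 9200 and 9524 reads, a ratio of 0.966 (0.939 to 0.994).

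Summed FPKM of the laminin alpha chains was 12.7 ± 0.217 (counting SE) in the library labelled TRIP13 shRNA, against 38.8 ± 0.390 in the control library. The beta chains summed to 50.7 ± 0.610 FPKM in the library labelled TRIP13 shRNA, against 78.4 ± 0.762 FPKM in the control library. FPKM was computed on merged exon length, so sums over genes are an approximation to transcript numbers.

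**Figure D3:**
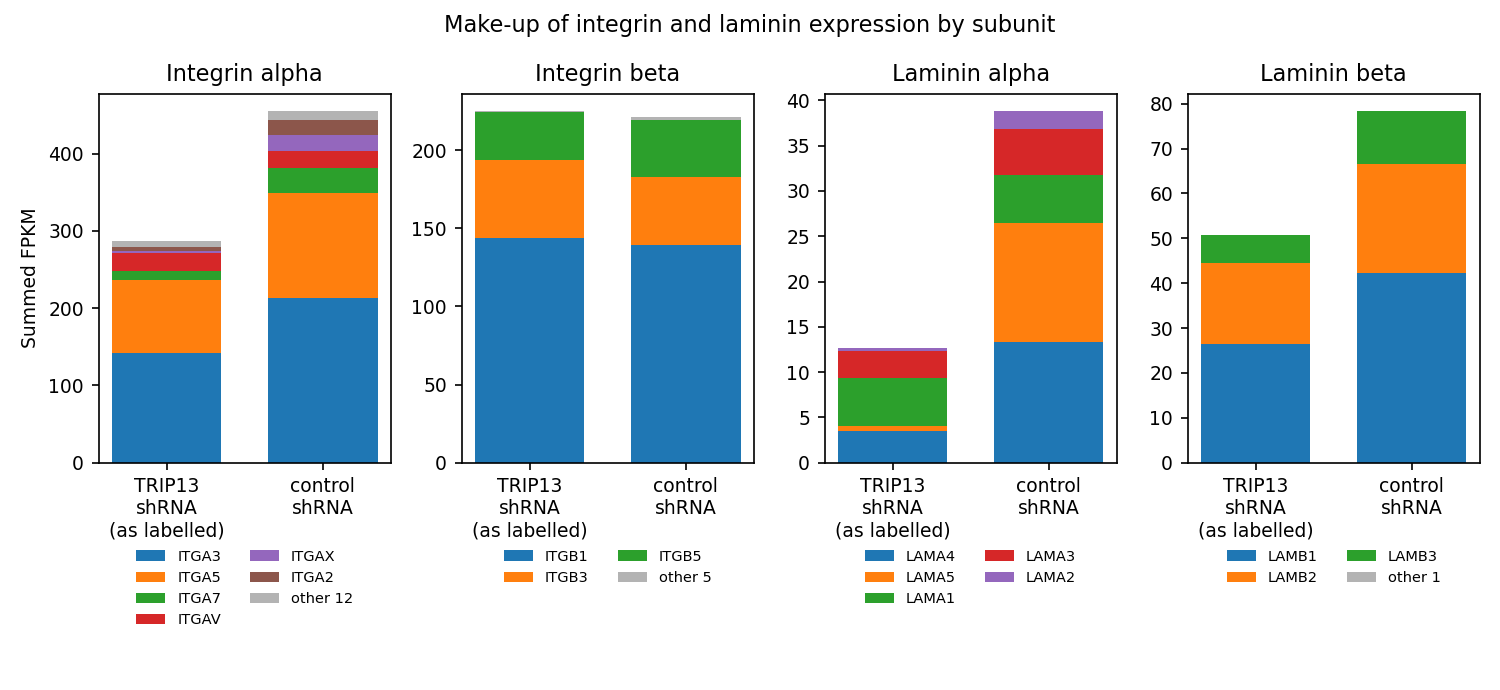
Summed FPKM of integrin alpha, integrin beta, laminin alpha and laminin beta genes, stacked by gene, with the library labelled TRIP13 shRNA left of the control library (1 library each). In proportion, laminin alpha falls short of the control bar most, 12.7 against 38.8 FPKM, while the integrin beta bars are of near equal height, 225 against 221 FPKM.

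Collagen-binding integrin alpha subunits were lower throughout. All 4 had a ratio whose interval lay below 1 and below the depth ratio. Intervals below the depth ratio were found for 35% of protein-coding genes with 20 or more reads. Of the 4, 3 had a ratio under 0.5, against 10.5% of those genes. ITGA2 (ENSG00000164171, chromosome 5, 52989326 to 53094779, plus strand), a collagen receptor of platelets and epithelia, had 5.36 FPKM from 822 reads in the library labelled TRIP13 shRNA, against 19.4 FPKM from 2981 reads in the control library. It was 3.63-fold lower (3.36 to 3.92). ITGA1, its neighbour at a distance of 30.1 kb and a receptor for basement membrane collagen, had 1.10 FPKM against 1.83 FPKM, a ratio of 0.600 (0.529 to 0.681). The counting intervals of these neighbours do not overlap. Of the exon length of ITGA1, 6.39% is shared, among others with PELO on the same strand, which had 14.6 FPKM against 11.8 FPKM. ITGA10, known from cartilage, had 0.645 FPKM against 2.84 FPKM from 79 and 348 reads and was 4.41-fold lower (3.44 to 5.70). ITGA11, a receptor of fibroblasts for fibrillar collagen, lay under the FPKM filter with 86 and 270 reads, a ratio of 0.319 (0.247 to 0.407). The 250 bases before the RefSeq start of ITGA2 (chr5:52989102-52989351, plus strand, GRCh38.p14) held 4 GC boxes, in capitals, and none of the other motifs. They are shown because ITGA2 is the most abundant of the 4 subunits in both libraries. The end of this window lies within the gene as annotated for the deposited values, which starts at 52989326.
ITGA2: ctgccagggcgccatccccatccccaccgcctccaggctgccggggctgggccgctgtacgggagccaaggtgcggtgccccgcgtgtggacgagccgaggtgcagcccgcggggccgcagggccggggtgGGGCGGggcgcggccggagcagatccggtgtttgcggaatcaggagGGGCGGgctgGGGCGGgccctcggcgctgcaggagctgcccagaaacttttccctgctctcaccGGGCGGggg

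Markers of pericytes and fibroblasts, cells that carry collagen receptors and LAMA2 or LAMA4, were partly lower as well. Of the 6, 3 passed the filter and 2 of these were at least 2-fold lower, PDGFRB and LUM. Their summed level was 6.95 FPKM over 6 genes in the library labelled TRIP13 shRNA, against 25.3 FPKM in the control library, with 1 and 0 of them at 0 reads. PDGFRB had 1.74 FPKM against 12.4 FPKM and LUM 2.08 FPKM against 7.55 FPKM, while ACTA2 had 2.53 FPKM against 3.28 FPKM. Under the filter, DCN had 33 reads against 386 and was 11.7-fold lower (8.19 to 17.2). RGS5 had 62 reads against 73, a ratio of 0.849 (0.595 to 1.21) that was not distinguishable from 1 at this depth. By the read ratio, 3 of the 5 pericyte and fibroblast markers with 20 or more reads were lower. Of the 12895 protein-coding genes with 20 or more reads, 10.5% were. Endothelial markers summed to 2.99 FPKM over 6 genes in the library labelled TRIP13 shRNA, against 5.67 FPKM in the control library, of which KDR gave 2.85 and 4.52 FPKM, with 1 and 0 of them at 0. PECAM1 had 1 read against 45 and VWF 6 reads against 75. The 4 platelet and megakaryocyte markers were led by GP1BA at 52 reads in the library labelled TRIP13 shRNA, against 45 in the control library, with 2 of them at 0 in each. Both libraries were of the U87MG line, so these lists show marker transcripts of that culture and not the presence of such cells. The origin of these differences was not tested. In bulk RNA, fewer expressing cells and less RNA per cell cannot be told apart.

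The laminin-binding alpha subunits ITGA3, ITGA6 and ITGA7 were lower as well. ITGA3 (chromosome 17, 50055968 to 50090481, plus strand), a receptor for LAMA3 and LAMA5 laminins, was the most abundant integrin transcript of the control library. It had 142 FPKM from 26952 reads in the library labelled TRIP13 shRNA, against 213 FPKM from 40487 reads in the control library, a ratio of 0.666 (0.655 to 0.676). ITGA7 (chromosome 12, 55684568 to 55716043, minus strand), the laminin receptor of muscle, had 11.2 FPKM against 32.3 FPKM and was 2.89-fold lower (2.72 to 3.08). ITGA6, a partner of both ITGB1 and ITGB4, was low in both libraries, with 29 and 85 reads, a ratio of 0.341 (0.216 to 0.526).

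RGD-binding alpha subunits, which recognise a short peptide of fibronectin and vitronectin, had ratios on both sides of 1. ITGA5, the main fibronectin receptor subunit, had 94.9 FPKM in the library labelled TRIP13 shRNA, against 136 FPKM in the control library, from 13929 and 20005 reads, a ratio of 0.696 (0.681 to 0.712). ITGAV, which pairs with several beta subunits, had 24.2 FPKM against 21.6 FPKM, a ratio of 1.12 (1.07 to 1.17). Its log2 ratio of 0.16 was 0.02 with the median ratio of all genes set to 1. ITGA2B, the platelet subunit, and ITGA8 had 0 reads in the library labelled TRIP13 shRNA, with 10 and 0 reads in the control library. A count of 0 allows up to 0.0206 FPKM for ITGA8 at 3 reads. ITGA4, a receptor for VCAM1 and fibronectin, was grouped apart from the RGD-binding subunits. It had 0.953 FPKM in the library labelled TRIP13 shRNA, against 1.73 FPKM in the control library, a ratio of 0.551 (0.447 to 0.677).

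ITGAX (ENSG00000140678, chromosome 16, 31355134 to 31382997, plus strand), the alpha subunit CD11c of myeloid cells, had the second lowest log2 ratio of the members past the filter, -2.87. It had 2.05 FPKM from 281 reads in the library labelled TRIP13 shRNA, against 21.3 FPKM from 2924 reads in the control library, a difference of 10.4-fold (9.20 to 11.8). ITGB2, the beta subunit with which ITGAX reaches the surface of leukocytes, had 7 and 27 reads, or 0.0531 and 0.205 FPKM. Neighbours of ITGAX on chromosome 16 were also near absent, ITGAD at 17 and 23 reads and ITGAM at 3 and 7 reads, and ITGAL had 7 and 29 reads. Few as their reads were, ITGB2 and ITGAL were among the 12 members lower by the read ratio. Their ratios were 0.259 (0.0953 to 0.610) and 0.241 (0.0893 to 0.563). Of 9 myeloid markers, CSF1R alone passed the filter. AIF1, CX3CR1, TYROBP, P2RY12 and C1QA had 0 reads in both, and the 9 genes summed to 3.78 FPKM in the library labelled TRIP13 shRNA, against 4.53 FPKM in the control library, mostly from CSF1R (3.31 against 3.75 FPKM). No exon of ITGAX overlaps another annotated gene.

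ITGAE, the E-cadherin receptor subunit of intraepithelial lymphocytes, had the highest ratio of the 31 members with 20 or more reads. It had 3.46 FPKM from 447 reads in the library labelled TRIP13 shRNA, against 2.16 FPKM from 279 reads in the control library, a ratio of 1.60 (1.38 to 1.87). Of its exon length, 7.59% is shared with other genes, among them HASPIN, a mitotic kinase gene on the opposite strand. HASPIN itself had 5.24 FPKM against 3.17 FPKM, a ratio of 1.65, and since the strand setting of the counting is not given, reads of the overlap cannot be told apart. The 5 lymphocyte markers summed to 0.558 FPKM in the library labelled TRIP13 shRNA, against 1.57 FPKM in the control library, with 3 and 0 of them at 0. ITGB7, the partner of ITGAE, had 9 and 16 reads, a ratio of 0.562 (0.219 to 1.35) that was not distinguishable from 1 at this depth. ZNF740 on the opposite strand covers 42.1% of the exon length of ITGB7.

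**Figure D4:**
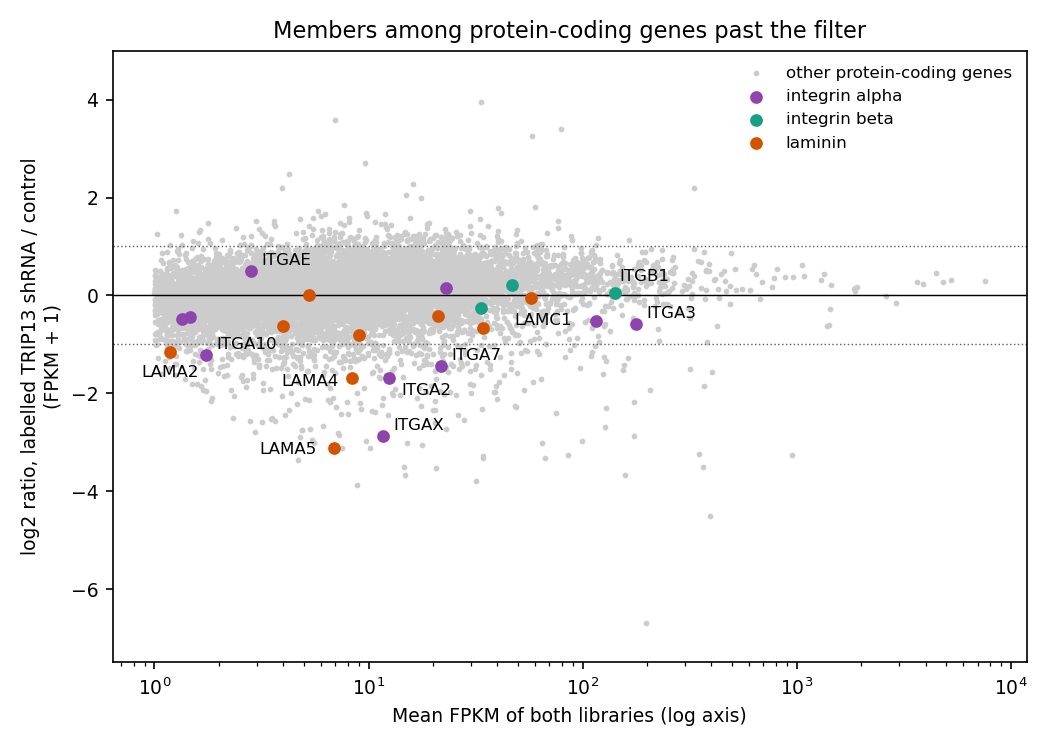
Log2 ratio of FPKM + 1, library labelled TRIP13 shRNA over control library, against mean FPKM (log axis) for the 10671 protein-coding genes past the filter, with 22 of the 23 members coloured by family and dotted lines at the 2-fold limits. The 7 members under the lower line are LAMA5, ITGAX, LAMA4, ITGA2, ITGA7, ITGA10 and LAMA2, and no member lies above the upper line.

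None of the 3 integrin beta subunits past the filter reached the 2-fold limit. ITGB1 (chromosome 10, 32900319 to 33005792, minus strand), the partner of most alpha subunits, had 144 FPKM from 16731 reads in the library labelled TRIP13 shRNA, against 139 FPKM from 16222 reads in the control library. Its ratio of 1.03 (1.01 to 1.05) lay under the depth ratio and its sign changed under another scaling, so no direction is read. ITGB3, which joins ITGAV in the vitronectin receptor, had 50.3 FPKM against 43.4 FPKM, a ratio of 1.16 (1.11 to 1.21). An overlapping annotated gene, AC068234.1, covers 51.6% of the exon length of ITGB3 on the same strand and had 0 and 1 reads, so the level of ITGB3 is uncertain. Its log2 ratio of 0.21 was 0.07 with the median ratio of all genes set to 1. ITGB5, another partner of ITGAV, had 30.4 FPKM against 36.7 FPKM, a ratio of 0.829 (0.794 to 0.865). Its log2 ratio of -0.26 was -0.40 with the median ratio of all genes set to 1.

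Among the beta subunits under the filter, ITGB8, which with ITGAV activates latent TGF-beta, had 91 reads in the library labelled TRIP13 shRNA, against 371 in the control library, a ratio of 0.245 (0.193 to 0.309). ITGB4, the hemidesmosome subunit, had 22 and 38 reads, a ratio of 0.579 with an interval from 0.326 to just over 1. That interval holds 1 but ends under the depth ratio of 1.05, so whether ITGB4 differed depends on the scaling. The 7 members with fewer than 20 reads in both libraries together had at most 8 reads in the library labelled TRIP13 shRNA, against 15 in the control library. Besides ITGA2B, ITGA8 and ITGAM, these were ITGA9, ITGB6, LAMB4 and LAMC3.

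ITGB1 held 63.8% of the summed integrin beta FPKM in the library labelled TRIP13 shRNA, against 62.9% in the control library, and ITGB3 held 22.4% and 19.6%. Integrin beta FPKM summed to 225 ± 1.44 (counting SE) in the library labelled TRIP13 shRNA, against 221 ± 1.42 in the control library, while integrin alpha FPKM summed to 287 ± 1.32 and 455 ± 1.67. The alpha to beta ratio was 1.27 in the library labelled TRIP13 shRNA, against 2.06 in the control library. The beta sum, the beta shares and this ratio include ITGB3, whose level is uncertain for its overlap with AC068234.1. ITGA3 and ITGA5 were the main alpha subunits in both, with 49.5% and 33.1% of the alpha sum in the library labelled TRIP13 shRNA, against 46.8% and 29.9% in the control library. ITGAV took 8.45% and 4.75% of it, and ITGAX 0.715% and 4.68%.

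Partner genes came from lists chosen for their known part in adhesion, with earlier results of these data known. Of 30 integrin adaptors and activators, which couple the beta tail to actin, 26 passed the filter and 0 were at least 2-fold higher or lower, with a median log2 ratio of 0.01. TLN2, a talin, had 5.57 FPKM in the library labelled TRIP13 shRNA, against 2.31 FPKM in the control library, and ACTN4, an actin crosslinker, 151 FPKM against 89.8 FPKM. The tensins TNS2 (4.89 against 10.5 FPKM) and TNS3 (4.97 against 10.2 FPKM) had the lowest log2 ratios. By the read ratio, TLN2 was higher, at 2.41 (2.21 to 2.63), and TNS2 and TNS3 were lower, 2.16-fold (1.98 to 2.35) and 2.05-fold (1.91 to 2.20), among 27 adaptors with 20 or more reads. Of the 12895 protein-coding genes with 20 or more reads, 4.72% were higher and 10.5% lower by this rule. All 3 inhibitors that act on integrin tails passed, with 0 beyond the limit and a median of 0.14. DOK1 had 16.6 FPKM against 13.2 FPKM, ITGB1BP1 21.4 FPKM against 19.4 FPKM, and SHARPIN 23.6 FPKM in both.

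Of 27 integrin ligands other than laminins, 15 passed the filter, with a median of -0.42. Of these, 2 were at least 2-fold higher, against 2.17% of the 10671 genes, and 4 at least 2-fold lower, against 4.19%. The higher ones were the matrix protein TGFBI (545 against 119 FPKM) and NOV (63.2 against 17.6 FPKM). By the read ratio, 3 of 18 ligands were higher, against 4.72% of the 12895 genes, POSTN being the third at 100 reads against 11. Lower by it were 6 ligands, against 10.5% of the 12895 genes. FN1, fibronectin, had 85.3 FPKM in the library labelled TRIP13 shRNA, against 329 FPKM in the control library, and ICAM1, a ligand of ITGB2 integrins, 3.22 FPKM against 13.1 FPKM. Of the 15, THBS1 (0.654 against 1.72 FPKM) and TGFB3 (0.966 against 1.64 FPKM) passed the filter through their control level alone. Of 6 tetraspanins, which associate with laminin-binding integrins, 5 passed, with a median of -0.18. CD82 alone was at least 2-fold lower, at 50.9 against 144 FPKM, where 4.19% of the 10671 genes were. CD81 had 13.8 against 18.2 FPKM. CD151 had 96.7 against 82.8 FPKM and CD9 27.9 against 29.6 FPKM. Of 3 hemidesmosome partners of ITGB4, 2 passed with 0 beyond the limit and a median of 0.15, PLEC at 82.6 against 55.3 FPKM and DST at 9.20 against 11.2 FPKM.

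Of 16 basement membrane partners of laminin, 6 passed the filter, with a median of -0.79. All 6 had log2 ratios below 0, as had 4222 of the 10671 genes, and 1 was at least 2-fold lower, against 4.19% of them. The lower gene was COL15A1, a collagen next to basement membranes, at 1.74 FPKM in the library labelled TRIP13 shRNA, against 4.90 FPKM in the control library. COL4A6, a basement membrane collagen chain, had 0.611 FPKM against 2.20 FPKM, COL4A5 1.35 FPKM against 2.83 FPKM, and agrin (AGRN) 14.4 FPKM against 20.3 FPKM. Of the 6, COL4A6 and HSPG2 (0.801 against 2.12 FPKM) passed the filter through their control level alone, so the median leans on that level. By the read ratio, 7 of the 15 partners with 20 or more reads were lower, against 10.5% of the 12895 genes, and 0 were higher, against 4.72%. The collagen chains COL4A1 and COL4A2, both under the filter, differed from each other. COL4A1 had 1 read in the library labelled TRIP13 shRNA, against 42 in the control library, while COL4A2 had 436 reads against 266, a ratio of 1.64 (1.40 to 1.92). Of 6 laminin receptors other than integrins, 4 passed with 0 beyond the limit and a median of 0.20. Dystroglycan (DAG1) had 23.2 FPKM against 13.1 FPKM and SDC1 48.7 FPKM against 31.7 FPKM, while SDC2 had 5.18 FPKM against 9.45 FPKM and SDC4 64.0 FPKM against 73.8 FPKM. By the read ratio, 2 of the 6 were lower, against 10.5% of the 12895 genes, and 0 higher, against 4.72%. These 2 were BCAM, at 11 reads against 50, and SDC3, at 21 reads against 45, both under the filter. BCAM was 4.55-fold lower (2.34 to 9.68) and SDC3 2.14-fold lower (1.25 to 3.79).

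**Figure D5:**
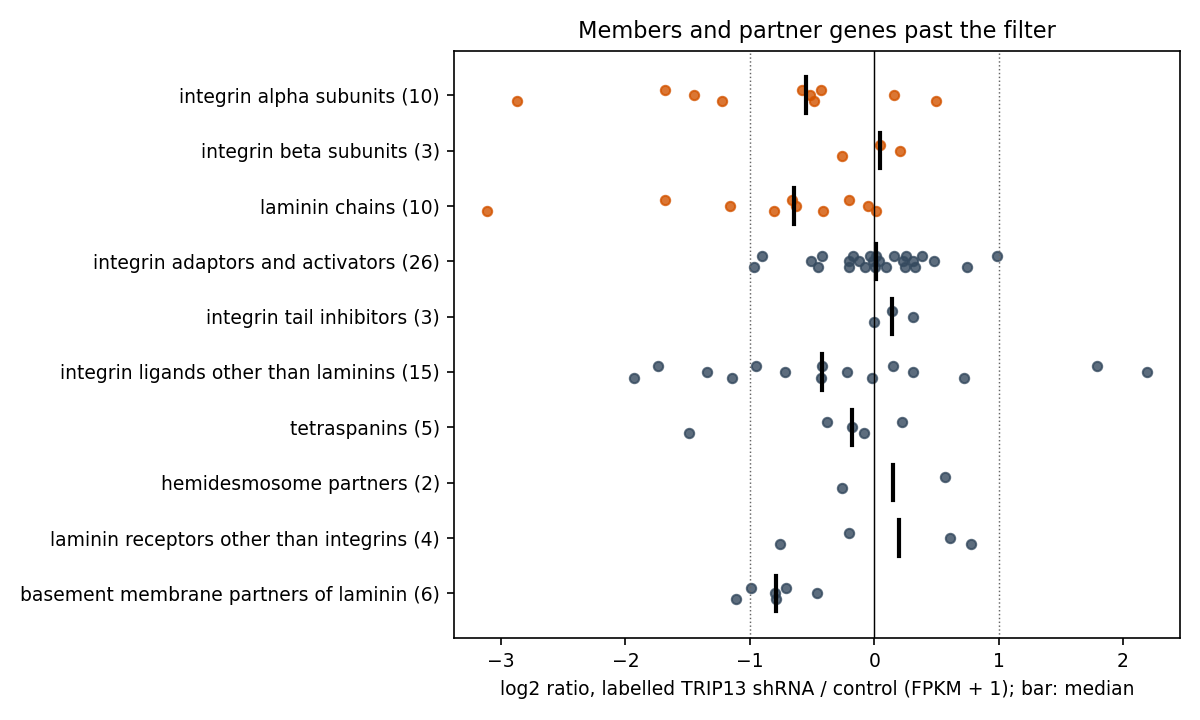
Log2 ratio of FPKM + 1, library labelled TRIP13 shRNA over control library, of members (orange) and partner genes (dark) past the filter, 1 point per gene, with bars for the medians and dotted lines at the 2-fold limits. Basement membrane partners have the lowest median, -0.79, followed by the laminin chains at -0.64 and the integrin alpha subunits at -0.55, while integrin adaptors centre on 0.01. Some genes of these groups passed the filter through their control level alone.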

How the data were processed

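RNA sequencing libraries were prepared from total RNA with a NEBNext Ultra kit, per the labels' protocols, with 1 library per group. The authors deposited FPKM values for 58735 genes. Per the submitters' processing notes, HISAT2 2.0.5 and featureCounts 1.5.0-p3 were used with build hg38, in roles the notes do not state. The strand setting is not given in the sources used here. GENCODE release 29 has the same identifier, position and strand for all 58735 genes, and exon overlaps were computed from it.

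FPKM times gene length was a whole multiple of 51.6 in both libraries for 100% of the values, within 0.001 of a read, and this gave reads per gene. Ratios of these reads equal ratios of FPKM and have exact 95% intervals. These cover counting error only, since no molecular identifiers are mentioned and PCR copies are not independent molecules. A floor of 3 reads was used for counts of 0. The step and interval calculations were tested on simulated data.

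Members and lists were chosen with earlier results of these data known. Named were the members with a mean FPKM of 1 or more, those under it with 20 or more reads, and up to 2 genes at each end of each list. Also named after their values were seen were members with fewer than 20 reads, HASPIN, ZNF740, PELO, AC068234.1, COL4A1, COL4A2, POSTN, HSPG2, THBS1, TGFB3, BCAM, SDC3 and further marker genes. The values of 1 member are not reported here, though counts and medians over the members include it. Calculations ran in Python 3.11.15 with pandas 2.3.3, numpy 2.4.6 and scipy 1.17.1, and plots in matplotlib 3.10.9.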

Additional observations from a re-analysis of the deposited data

How the results depend on the processing

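No paired analysis was possible because there is a single library in either arm. Values were recomputed with pseudocounts of 0.1 and 5, with the filter dropped or raised to a mean FPKM of 5, and under TPM, own totals, a median ratio of 1, and totals without mitochondrial and the 50 most abundant genes. The count of members at least 2-fold higher was 0 under each of these. The count at least 2-fold lower was between 5 and 9, and 12 by the read ratio rule added after seeing the data, which needs no pseudocount and lets 31 members in. The median log2 ratio of members was -0.68 and -0.35 with pseudocounts of 0.1 and 5, -0.24 without filter over all 38 members, -0.55 at a mean FPKM of 5 or more, -0.79 under TPM, -0.59 with own totals, -0.66 with a median ratio of 1 and -0.59 without the abundant genes. The 7 members at least 2-fold lower stayed so under all 4 scalings, and the sign changed for ITGB1 and LAMA1 alone among the 23. The log2 ratio of TRIP13 was 0.74 with a pseudocount of 5 and 0.77 with a median ratio of 1, beside 0.90. By reads in place of FPKM, the ITGB1 share of the beta subunits was 67.1% in the library labelled TRIP13 shRNA, against 65.0% in the control library. Differences of some members with few reads, such as ITGAD and ITGB7, were not detectable at this depth.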

Other observations

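Genes named after members but outside the member rule were read as values only. ITGBL1, a secreted protein with integrin beta-like repeats, had 6.03 FPKM in the library labelled TRIP13 shRNA, against 34.8 FPKM in the control library, and was 5.78-fold lower (5.34 to 6.27). ITGB1-DT, a long noncoding RNA divergent from ITGB1, had 310 and 506 reads, a ratio of 0.613 (0.530 to 0.707), beside 1.03 for ITGB1. LAMC1-AS1, antisense to LAMC1, had 35 and 38 reads, a ratio of 0.921 with a counting interval on both sides of 1. ITGA9-AS1 had 28 and 53 reads, a ratio of 0.528 (0.322 to 0.850). ITGB3BP, a centromere protein despite its name, had 7.28 FPKM in the library labelled TRIP13 shRNA, against 5.96 FPKM in the control library, a ratio of 1.22 (1.10 to 1.36). These genes were chosen after their values were seen. So was PXDN, a basement membrane peroxidase gene from the list of laminin partners that lay under the FPKM filter, which had 6 and 374 reads, or 0.0275 FPKM in the library labelled TRIP13 shRNA, against 1.71 FPKM in the control library.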
